A study of Mus musculus with 6 samples.

Results

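The cytochrome P450 genes of the colon were examined in 3 Gm31629-/- mice and 3 WT mice that had received dextran sulfate sodium (DSS), a polymer that injures the colonic epithelium. Members were all rows of the deposited expression table whose mouse symbol starts with Cyp, followed by a family number, a subfamily letter and a gene number, with 7 pseudogene symbols left out. This gave 73 genes of 27546 listed, in 14 families and 35 subfamilies, of which 72 are protein coding and 1, Cyp4x1os, is an antisense transcript. All 6 mice were C57BL/6, 8 weeks old, and drank 3% DSS for 7 days before they were sacrificed on day 8. The groups were set up to differ by genotype under injury, and there were no untreated mice. The methods describe male mice, but sex-linked transcripts set Gm31629-/- mouse 1 apart from all the others, as given below. The Gm31629-/- mice lack a stretch of chromosome 1 that holds the long noncoding RNA Gm31629 in every cell of the body, and the WT mice were littermates. Values are FPKM, that is, fragments scaled for exon length and for library depth, with 1 column per mouse, although the methods speak of pooled RNA. If the columns were not separate mice, the p-values measure only the spread between libraries.

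P450 enzymes are heme proteins that insert oxygen into their substrates, with electrons supplied by the reductase Por in the endoplasmic reticulum or by the ferredoxin Fdx1 in mitochondria. The low-numbered families oxidise drugs, food compounds and fatty acids, and several of their members are found in the absorptive epithelium of the gut. The higher-numbered families make or clear sterols, bile acids, steroid hormones, retinoic acid and vitamin D.

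The 6 libraries held 17996800 to 18796200 fragments, recovered from the size of the smallest FPKM steps. The libraries did not differ in P450 genes alone. Smooth muscle markers summed to 1323 to 2050 FPKM in the Gm31629-/- mice and 25.7 to 45.8 FPKM in the WT mice, and 10 of 11 tested were called higher. Markers of fibroblasts (8 of 8 tested), endothelium (6 of 6), enteric neurons and glia (6 of 7), macrophages (6 of 7), neutrophils (4 of 4) and adipocytes (4 of 5) were called higher as well, and Elavl4, a defining marker of enteric neurons, was at 0 in the WT mice. Epithelial markers summed to 8094 to 9589 FPKM in the Gm31629-/- mice and 12970 to 14170 in the WT mice, with 4 of 15 called lower. Over all tested genes, 18.4% were called higher and 4.64% lower. The epithelial list was not uniform, with 12 negative and 3 positive log2 fold changes. Group means in Gm31629-/- and WT mice were 2042 and 4198 FPKM for Krt8, 1109 and 1104 FPKM for Epcam, and 241 and 171 FPKM for Tspan8. Goblet cell markers summed to 12510 to 17920 FPKM in the Gm31629-/- and 4781 to 6139 FPKM in the WT mice, with 4 of 8 called higher and 1 lower. Gm31629-/- mouse 1 listed the Y-linked Ddx3y at 9.27 FPKM and Xist at 0.006 FPKM, while the other 5 mice listed Ddx3y at 0 and Xist at 8.35 to 13.8 FPKM, whereas the methods describe male mice. In colon tissue, fewer cells of a type and less RNA per cell cannot be told apart, and the part of the marker differences in the P450 results was not tested.

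**Figure D1:**
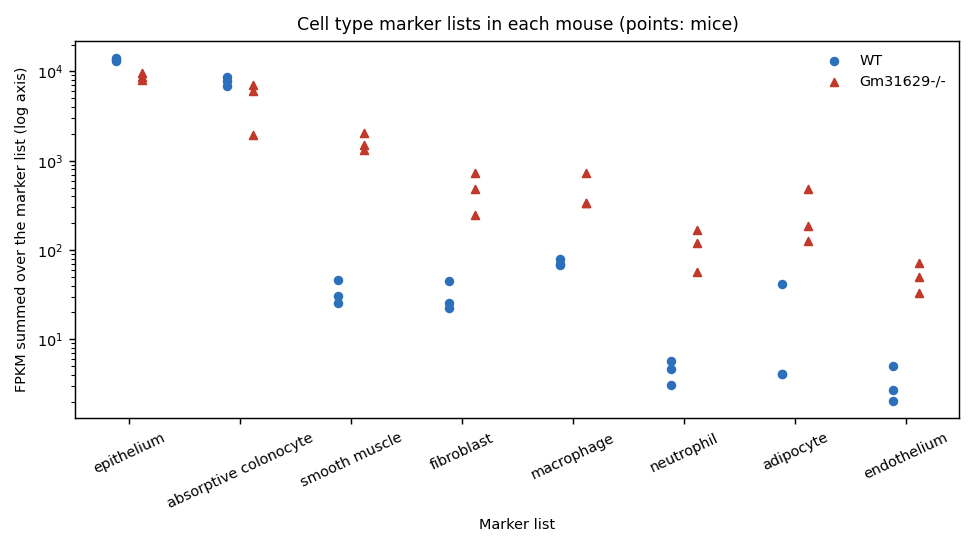
FPKM summed over 8 cell type marker lists (y axis, log scale) in each of the 3 WT mice (blue circles) and 3 Gm31629-/- mice (red triangles). The smooth muscle sums were 25.7 to 45.8 FPKM in WT and 1323 to 2050 FPKM in Gm31629-/- mice, and the sum for absorptive colonocytes was lowest in Gm31629-/- mouse 2 (1952 FPKM).

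On the log2(FPKM + 1) scale, where low genes show too small a change, the largest P450 differences lay in a pair of gene clusters. These are Cyp2c on chromosome 19 and Cyp2d on chromosome 15. With voom on the recovered fragments, the largest log2 fold changes were those of scarce genes, beside -5.23 in Cyp2c65. They were Cyp3a44 (-8.05), Cyp2c66 (-7.85), Cyp3a25 (-6.98) and Cyp2w1 (-6.71), of which only Cyp2c66 lies in the pair of clusters. With a pseudocount of 0.1, Cyp3a44 (-5.23) and Cyp2c65 (-5.19) were the most negative. The stretches before the start sites of 3 neighbouring Cyp2c genes that were lower in the Gm31629-/- mice are shown first (RefSeq, GRCm38.p6, plus strand, 200 bases up to the start). Capitals mark CAAAGTCCA, letters known from sites of the liver and gut factor Hnf4a. They cover chr19:39006819-39007018 for Cyp2c55, chr19:39060806-39061005 for Cyp2c65 and chr19:39113698-39113897 for Cyp2c66.

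Cyp2c55: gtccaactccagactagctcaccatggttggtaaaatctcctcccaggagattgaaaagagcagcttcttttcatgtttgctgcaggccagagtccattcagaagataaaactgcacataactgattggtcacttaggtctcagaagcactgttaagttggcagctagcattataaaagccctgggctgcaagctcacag
Cyp2c65: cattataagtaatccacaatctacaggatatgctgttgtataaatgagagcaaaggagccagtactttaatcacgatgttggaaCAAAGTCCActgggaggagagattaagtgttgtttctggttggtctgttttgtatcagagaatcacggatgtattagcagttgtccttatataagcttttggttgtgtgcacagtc
Cyp2c66: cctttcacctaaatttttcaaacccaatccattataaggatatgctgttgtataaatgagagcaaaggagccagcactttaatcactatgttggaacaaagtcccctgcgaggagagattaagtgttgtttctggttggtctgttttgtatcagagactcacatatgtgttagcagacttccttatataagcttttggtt

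Cyp2c65 and Cyp2c66 were identical in 79.7% of aligned columns, against 103 of 206 columns between Cyp2c55 and Cyp2c65 and 45.3% between Cyp2c55 and Cyp2c66. The 9 letters occurred, on either strand, in the 300-base windows of 150 of 27025 genes (0.6%) and of 7 of the 57 members with a window, which were Cyp2c65, Cyp2c67, Cyp2c68, Cyp2c69, Cyp2c70, Cyp3a11 and Cyp8b1. Counted from 1 at the 5′ end of the letters, the nearest stretch differed by A9C in Cyp2c66 and by A3G in Cyp2c55, and 9.6% of all genes had a stretch within 1 letter. Of the called members, 1 of 11 lower genes and 0 of 6 higher genes with a window held the exact letters. These letters were chosen after the values had been seen, and a match is a description, not a site.

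For Cyp2d, the stretches of a pair of genes that were higher, Cyp2d9 and Cyp2d10, are set beside the one lower gene, Cyp2d26 (bases 200 to 51 before the start). They cover chr15:82452177-82452326 on the plus strand for Cyp2d9, chr15:82407245-82407394 on the minus strand for Cyp2d10 and chr15:82794296-82794445 on the minus strand for Cyp2d26, and hold none of these letters. In the GENCODE annotation Cyp2d9 spans 82433437 to 82456845, so the stretch before its RefSeq start lies inside that gene.

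Cyp2d9: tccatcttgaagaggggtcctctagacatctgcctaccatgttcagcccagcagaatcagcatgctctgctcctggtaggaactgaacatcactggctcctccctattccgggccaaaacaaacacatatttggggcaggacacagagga
Cyp2d10: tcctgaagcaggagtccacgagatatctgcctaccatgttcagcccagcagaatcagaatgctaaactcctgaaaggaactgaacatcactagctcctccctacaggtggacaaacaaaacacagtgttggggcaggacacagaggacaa
Cyp2d26: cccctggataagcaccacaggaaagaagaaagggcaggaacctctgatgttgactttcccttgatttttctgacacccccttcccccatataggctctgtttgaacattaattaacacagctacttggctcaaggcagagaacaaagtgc

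Cyp2d9 and Cyp2d10 were identical in 80.5% of aligned columns. Cyp2d26 shared 39.2% with Cyp2d10 and 37.9% with Cyp2d9. Over 9 pairs of a Cyp2c and a Cyp2d stretch it was 36.5% to 43.8%. Those pairs align 200 with 150 bases, which adds gap columns, so their percentages are not on a like measure.

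Which P450 genes differ between the genotypes was asked with limma on log2(FPKM + 1), over all 14657 genes with a mean of at least 0.5 FPKM. Calls needed a Benjamini-Hochberg adjusted p under 0.05 together with a change of more than 1 on the log2 scale in either direction. Of the 73 members, 32 passed this filter and 41 did not. Among the 32, 11 were called higher in the Gm31629-/- mice (34.4%, where 18.4% of all tested genes were) and 11 lower (34.4%, where 4.64% were). In 12 members all Gm31629-/- values lay above all WT values (36.3% of all tested genes), in 12 all lay below (21.5%), and in 8 the groups overlapped. The filter let in 7 members with a group mean under 0.5 FPKM. That group was the Gm31629-/- mice for Cyp2c66, Cyp2w1, Cyp3a25 and Cyp3a44, and the WT mice for Cyp2f2, Cyp7b1 and Cyp26b1. Among the other 25, 9 were called higher (36.0%) and 7 lower (28.0%). The share over all genes with both group means at or above 0.5 FPKM was not computed, so these counts have no comparison. The median log2 fold change of the tested members was -0.01, beside 0.15 over all tested genes. That median over all genes moved to -0.06 when libraries were scaled by the median ratio and to 0.62 when scaled to epithelial markers, and the members' median to -0.25 and 0.56, so every fold change given here is relative to the scaling. The spread was larger among the Gm31629-/- mice than among the WT mice for 25 of the 32 members (78.1%) and for 70.8% of all tested genes.

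**Figure D2:**
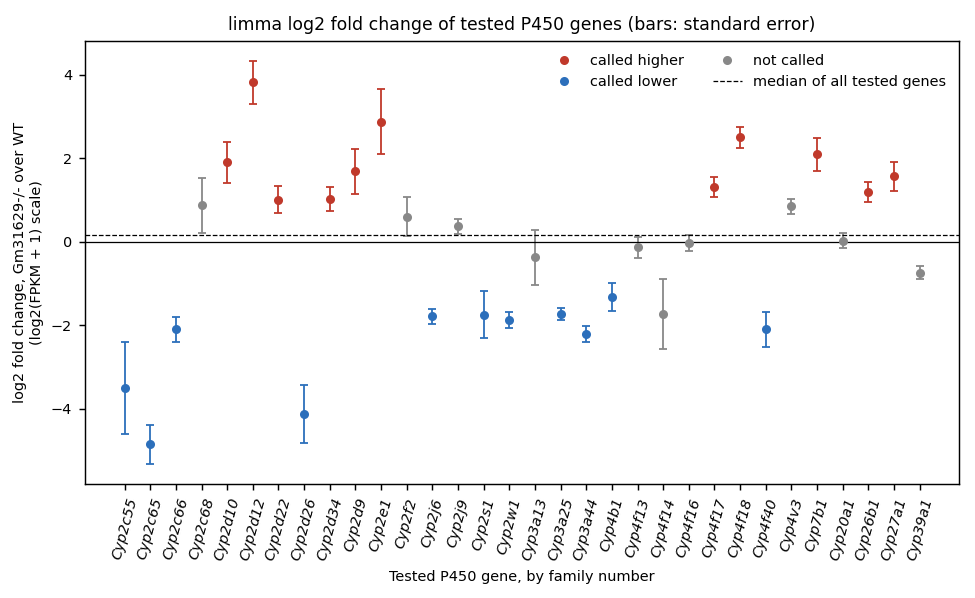
Log2 fold change of Gm31629-/- over WT (y axis, log2(FPKM + 1) scale) for the 32 tested P450 genes in order of family number, with bars for the standard error and a dashed line at the median of all tested genes (0.15). Red marks the 11 genes called higher and blue the 11 called lower, and all called Cyp3a genes lie below 0 while 5 of 6 Cyp2d genes lie above it.

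By group mean, Cyp2c55 was the most abundant P450 transcript of the WT mice and Cyp2d34 that of the Gm31629-/- mice. Summed over all 73 members it was 1657, 2440 and 2112 FPKM in WT mice 1 to 3 and 1393, 521.8 and 1321 FPKM in Gm31629-/- mice 1 to 3, with group means in a ratio of 0.521. All 3 Gm31629-/- sums were below the lowest WT sum as deposited. After scaling to epithelial markers the groups overlapped, at 1315, 1864 and 1825 in WT and 1711, 668 and 1602 in Gm31629-/- mice, with a ratio of 0.796. An exact permutation test of 3 against 3 mice cannot give a p below 0.10. Without Cyp2c55 the sums were 666, 915 and 911 FPKM in WT and 1055, 508 and 1068 FPKM in Gm31629-/- mice, and the groups overlapped. Cyp2c55 alone made up 56.8% to 62.5% of the pool in the WT mice and 24.3%, 2.58% and 19.1% in Gm31629-/- mice 1 to 3. Cyp2d34 took 7.42% to 7.62% in WT and 22.8%, 41.4% and 34.1% in Gm31629-/- mice. The 5 most abundant genes of each group held 82.8% of the mean pool in WT and 70.6% in Gm31629-/- mice.

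**Figure D3:**
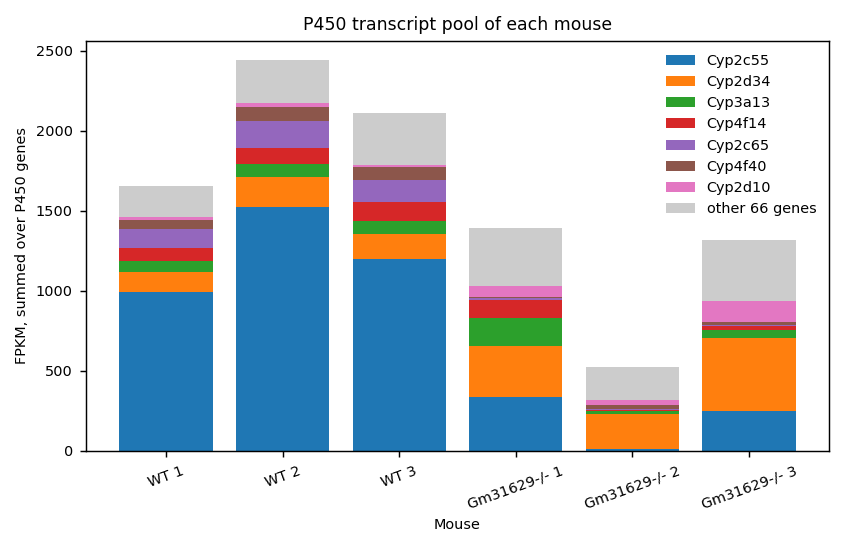
FPKM summed over the 73 P450 genes (y axis, from 0) in each mouse, stacked by the 7 genes with the highest mean and the other 66 together. Cyp2c55 fills 56.8% to 62.5% of each WT bar, and Gm31629-/- mouse 2 has the smallest bar (521.8 FPKM).

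The Cyp2c subfamily, enzymes that make epoxides and hydroxylated acids from arachidonic acid and oxidise drugs, was the most abundant in the WT mice and fell in 3 of its 4 tested genes. Cyp2c55, the leading P450 of the WT colon, stood at 991, 1525 and 1200 FPKM in WT mice and at 338, 13.4 and 252 FPKM in Gm31629-/- mice. Every Gm31629-/- value was below every WT value, and mouse 2 was 25.1-fold below mouse 1 of its own group. The log2 fold change was -3.51 ± 1.10 (SE, n = 3 per group, limma adjusted p = 0.0372). The adjusted p was 0.0823, 0.0979 and 0.101 without WT mouse 1, 2 and 3, and the log2 fold change was -2.06 (limma adjusted p = 0.00155) without Gm31629-/- mouse 2. That mouse also had the lowest sum of absorptive colonocyte markers, 1952 FPKM. The sum was 6004 and 6976 FPKM in the other Gm31629-/- mice and 6948 to 8724 FPKM in WT. Of the 7 listed genes, Car1 was called lower and 6 were not called, and 3 had a positive log2 fold change. In Gm31629-/- mouse 2, Car1 was at 509 FPKM (WT 3886 to 5459) and Aqp8 at 302 FPKM (WT 240 to 307).

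Cyp2c65 was listed at 119, 171 and 139 FPKM in WT mice and at 10.1, 2.25 and 2.32 FPKM in Gm31629-/- mice. The groups were far apart in each mouse, with a log2 fold change of -4.85 ± 0.47 (SE, limma adjusted p = 0.000542). This was the most negative of the 32 members on the log2(FPKM + 1) scale. Cyp2c66, next to it on the chromosome, was at 1.69, 5.11 and 3.83 FPKM in WT mice and at 0 in all 3 Gm31629-/- mice (380 and 0 fragments, limma adjusted p = 0.00193). Against 3 fragments per library, the most that a 0 allows, it was at least 42.3-fold lower. Cyp2c68 was at 10.5, 2.29 and 23.7 FPKM in Gm31629-/- and 3.46 to 4.93 FPKM in WT mice, with overlapping groups (limma adjusted p = 0.312), and was called higher without Gm31629-/- mouse 2 (1.65, limma adjusted p = 0.0123). Of the 50-base stretches of these transcripts, 20.6% in Cyp2c65, 19.5% in Cyp2c66 and 43.3% in Cyp2c68 also occur in other genes, so reads may have been split between copies, while in Cyp2c55 the share is 0.5%. The other 4 Cyp2c genes were below the filter, and 2 of them, Cyp2c23 (8, 17 and 44 fragments against 4, 3 and 2) and Cyp2c70 (6, 6 and 2 against 0), were above all WT values.

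In the neighbouring order of the cluster at 39007019 to 40187333 on chromosome 19, the 3 called genes Cyp2c55, Cyp2c65 and Cyp2c66 stand side by side at its start. The Cyp2d cluster at 82370527 to 82794294 on chromosome 15 showed the opposite, with 5 of 6 tested genes called higher and the last one, Cyp2d26, lower.

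**Figure D4:**
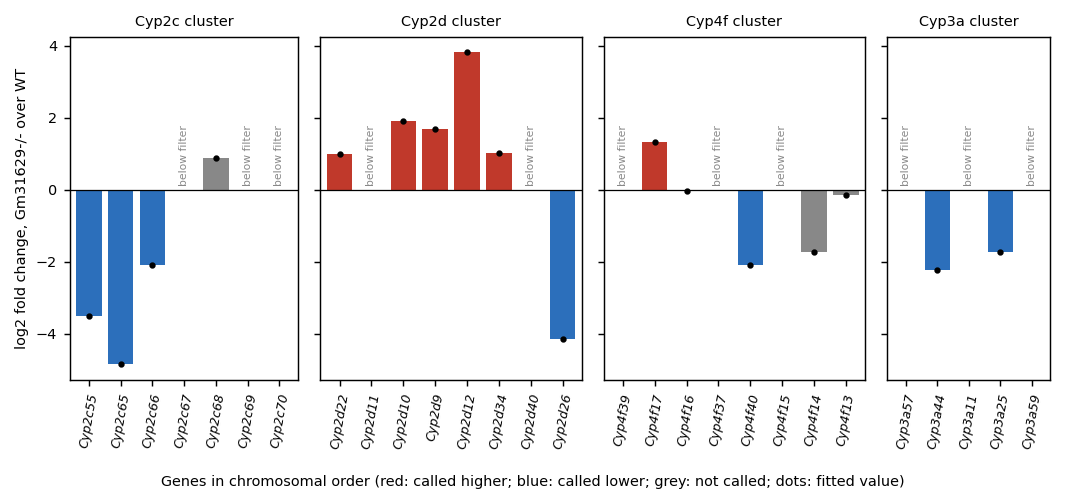
Log2 fold change of Gm31629-/- over WT (y axis) for genes of 4 P450 clusters in chromosomal order (x axis, not to scale), with red bars called higher, blue called lower and grey not called. The Cyp2c bars run down to -4.85 at Cyp2c65, and the Cyp2d bars up to 3.82 at Cyp2d12 and down to -4.14 at Cyp2d26.

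The Cyp2d subfamily, related to the human drug-metabolising enzyme CYP2D6, summed to 202, 298 and 320 FPKM in WT mice and to 573, 300 and 800 FPKM in Gm31629-/- mice, with overlapping groups. Cyp2d12 was at 78.5, 26.0 and 119 FPKM in Gm31629-/- mice and at 2.48, 4.10 and 4.19 FPKM in WT mice. This was the largest rise among the 32 tested members on the log2(FPKM + 1) scale, 3.82 ± 0.51 (SE, limma adjusted p = 0.00167), with no overlap. By group means Cyp2d12 was 20.7-fold higher and Cyp7b1 22.1-fold, the latter against a WT mean of 0.21 FPKM. Cyp2d26 went the other way, from 39.8, 61.9 and 120 FPKM in WT mice to 10.01, 0.692 and 2.05 FPKM in Gm31629-/- mice (log2 fold change -4.14 ± 0.70, limma adjusted p = 0.0038). The calls of Cyp2d12 and Cyp2d26 were made in each of the 6 fits that left out 1 mouse.

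Cyp2d34, the most abundant P450 of the Gm31629-/- mice, was at 318, 216 and 450 FPKM there and at 126, 186 and 157 FPKM in WT mice, without overlap (log2 fold change 1.02 ± 0.29, limma adjusted p = 0.0256). Cyp2d10 was at 66.1, 29.7 and 131 FPKM in Gm31629-/- and 16.5, 21.9 and 12.1 FPKM in WT mice (1.90 ± 0.50, limma adjusted p = 0.0203). The rises of Cyp2d22 (19.2, 9.25 and 24.8 against 6.89, 8.34 and 8.03 FPKM, limma adjusted p = 0.0423) and Cyp2d9 (80.3, 18.8 and 73.1 against 9.50, 16.3 and 18.9 FPKM, limma adjusted p = 0.0416) were nearest to the threshold on adjusted p. Their log2 fold changes were 1.0004 ± 0.33 and 1.68 ± 0.55, so Cyp2d22 barely passed on size. In Cyp2d9, Gm31629-/- mouse 2 lay within the WT range, and in all 5 genes that mouse was the lowest of its group. The calls of Cyp2d22, Cyp2d34 and Cyp2d9 were lost without Gm31629-/- mouse 1 (limma adjusted p = 0.0973, 0.0519 and 0.103) and without Gm31629-/- mouse 3 (0.11, 0.0574 and 0.125). They were also lost when libraries were scaled by the median ratio (0.111, 0.0879 and 0.0724). Without WT mouse 1 or 3 the adjusted p was 0.0591 and 0.0788 for Cyp2d10, 0.119 and 0.106 for Cyp2d22, 0.0904 and 0.0798 for Cyp2d34, and 0.128 and 0.0794 for Cyp2d9. Without WT mouse 2 it was 0.0862 for Cyp2d22 and 0.0839 for Cyp2d9. Reads of Cyp2d10 and Cyp2d9 may be shared with copies, since 35.8% and 21.8% of their 50-base stretches occur elsewhere. Cyp2d11 and Cyp2d40 were below the filter.

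Among the remaining family 2 genes, Cyp2e1, which oxidises ethanol and other small molecules in liver and fat, was at 9.82, 39.8 and 13.3 FPKM in Gm31629-/- mice and at 0.301, 0.540 and 7.08 FPKM in WT mice. The groups did not overlap, and WT mouse 3 came close to Gm31629-/- mouse 1 (log2 fold change 2.87 ± 0.77, limma adjusted p = 0.0221). Adipoq, a product of fat cells, was at 4.01, 38.3 and 12.8 FPKM in Gm31629-/- and 0.431, 0.643 and 3.16 FPKM in WT mice, so the same mouse was highest in each group, and the adipocyte list summed to 185, 477 and 126 FPKM against 4.09, 4.09 and 41.9 FPKM. The part of fat in the Cyp2e1 values was not tested. The adjusted p of Cyp2e1 was 0.0576 without Gm31629-/- mouse 2, 0.0745 without WT mouse 1 and 0.0723 without WT mouse 2, and its log2 fold change was 3.71 without WT mouse 3.

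Cyp2j6, an epoxygenase of arachidonic and linoleic acid, was at 28.0, 36.5 and 28.6 FPKM in WT mice and at 6.68, 10.1 and 8.05 FPKM in Gm31629-/- mice. Its values were tight in both groups (log2 fold change -1.79 ± 0.19, limma adjusted p = 0.000709). Cyp2s1, a P450 of epithelia outside the liver, was at 27.5, 46.2 and 37.4 FPKM in WT and at 22.3, 3.41 and 12.2 FPKM in Gm31629-/- mice (-1.75 ± 0.56, limma adjusted p = 0.0399). This call was lost after scaling to epithelial markers (limma adjusted p = 0.101), without Gm31629-/- mouse 3 (0.0762) and without WT mouse 1, 2 or 3 (0.0693, 0.113 and 0.11), and without Gm31629-/- mouse 2 the log2 fold change was -1.09. Cyp2w1, known from fetal gut and colon tumours in man, held 64, 103 and 64 fragments in the WT mice and 0, 0 and 1 in the Gm31629-/- mice. The pooled fragment counts were in a ratio of 231 (95% exact binomial interval 41.0 to 9150, counting error only), with a limma adjusted p of 0.000645. Cyp2j9 was above all WT values but not called (1.56, 0.991 and 0.685 against 0.549 to 0.654 FPKM, limma adjusted p = 0.16).

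**Figure D5:**
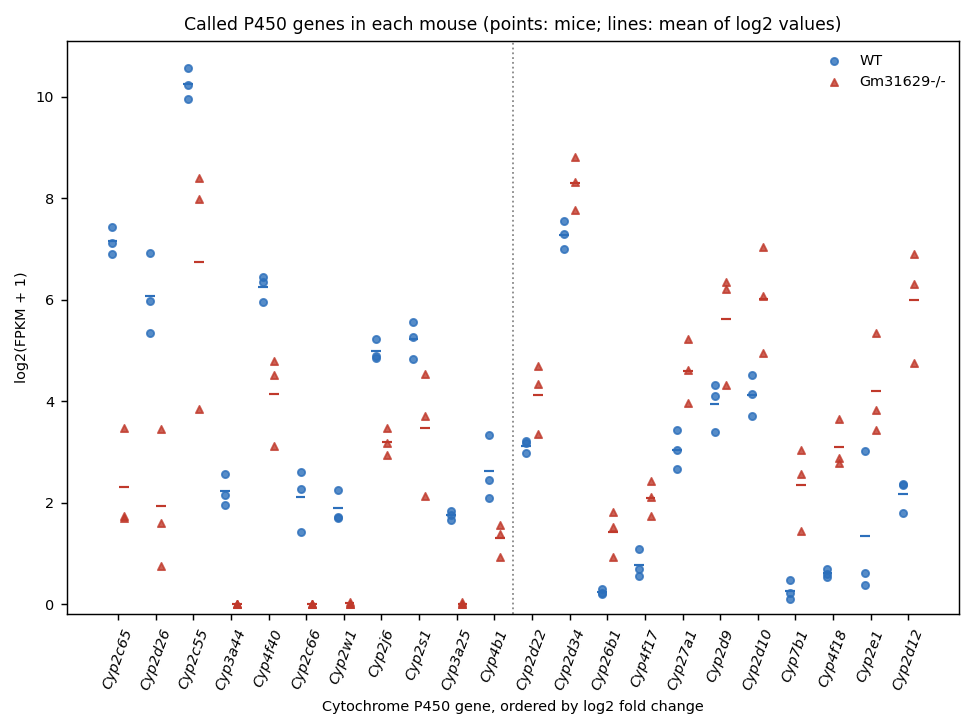
Log2(FPKM + 1) (y axis) of the 22 called P450 genes in each WT mouse (blue circles) and Gm31629-/- mouse (red triangles), ordered by log2 fold change, with a line for the mean of each group's log2 values. The 11 genes left of the dotted line were called lower and the 11 right of it higher. Cyp2c66 and Cyp3a44 were at 0 in the 3 Gm31629-/- mice, and in Cyp2d9 the groups overlap.

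The Cyp3a genes, the main drug oxidases of gut and liver, split by abundance. Cyp3a13, the abundant one, was at 67.5, 79.1 and 80.5 FPKM in WT mice and at 172, 20.8 and 53.6 FPKM in Gm31629-/- mice. Gm31629-/- mouse 1 was above and mice 2 and 3 below the WT range, and the gene was not called (log2 fold change -0.37 ± 0.66, limma adjusted p = 0.67). Its sign was the opposite, 0.24, after scaling to epithelial markers, and 0.35 without Gm31629-/- mouse 2. Without Gm31629-/- mouse 1, the mouse whose Y-linked transcripts set it apart, Cyp3a13 was called lower (-1.15, limma adjusted p = 0.047).

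Of the scarce Cyp3a genes, Cyp3a25 held 83, 90 and 100 fragments in the WT mice and 0, 1 and 0 in the Gm31629-/- mice. The pooled ratio was 273 (95% exact binomial interval 48.5 to 10810, limma adjusted p = 0.000327). Cyp3a44 held 125, 101 and 182 fragments in WT mice and 0 in each Gm31629-/- mouse, at least 45.1-fold lower (limma adjusted p = 0.000397). Of their 50-base stretches, 26.8% and 26.5% occur in other genes. Cyp3a11, too scarce to test, held 3, 5 and 5 fragments in WT and 0 in Gm31629-/- mice, and Cyp3a57 and Cyp3a59 had at most 3 fragments in any mouse.

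Family 4 enzymes hydroxylate fatty acids and eicosanoids at their far end, and the Cyp4f members inactivate leukotriene B4, a signal that draws neutrophils. Cyp4f14 and Cyp4f40 were the abundant ones. Cyp4f40 was at 61.1, 86.0 and 80.1 FPKM in WT mice and at 7.66, 26.6 and 21.9 FPKM in Gm31629-/- mice, without overlap (log2 fold change -2.11 ± 0.42, limma adjusted p = 0.00715). Cyp4f14 was at 79.8, 102 and 116 FPKM in WT mice and at 115, 7.32 and 26.6 FPKM in Gm31629-/- mice, so mouse 1 lay inside the WT range and the other 2 below it (-1.73 ± 0.84, limma adjusted p = 0.133). Without Gm31629-/- mouse 1, Cyp4f14 was called lower (-2.71, limma adjusted p = 0.00593), and without mouse 2 it stood at -0.81 (0.293). Cyp4f13 (10.1 to 19.6 FPKM over the 6 mice) and Cyp4f16 (24.9 to 36.7 FPKM) overlapped between the groups, with limma adjusted p of 0.682 and 0.902.

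Cyp4f18, the leukotriene B4 hydroxylase of mouse neutrophils, was at 0.612, 0.449 and 0.516 FPKM in WT mice and at 5.89, 11.5 and 6.40 FPKM in Gm31629-/- mice. It was 15.1-fold higher by group means (log2 fold change 2.497 ± 0.248, limma adjusted p = 0.000588). The neutrophil list summed to 3.06, 5.68 and 4.68 FPKM in WT and to 169, 121 and 56.1 FPKM in Gm31629-/- mice, with 4 of 4 genes called higher, and the macrophage list to 68.2 to 78.8 FPKM in WT and 333, 726 and 336 FPKM in Gm31629-/- mice. Their part in the Cyp4f18 values was not tested. Cyp4f17, a near neighbour of Cyp4f16 on chromosome 17, was at 0.607, 1.12 and 0.471 FPKM in WT and at 4.40, 3.30 and 2.31 FPKM in Gm31629-/- mice (1.31 ± 0.24, limma adjusted p = 0.00501).

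Cyp4b1, which hydroxylates fatty acids and activates some toxins, was at 3.26, 4.46 and 9.13 FPKM in WT and at 1.95, 1.61 and 0.917 FPKM in Gm31629-/- mice (log2 fold change -1.33 ± 0.34, limma adjusted p = 0.018). The call was lost after scaling to epithelial markers (limma adjusted p = 0.0662), without Gm31629-/- mouse 3 (0.0564) and without WT mouse 3, where the log2 fold change was -0.97. Cyp4v3, a fatty acid hydroxylase, was at 1.74 to 1.92 FPKM in WT and 3.17 to 4.57 FPKM in Gm31629-/- mice, and its log2 fold change of 0.84 ± 0.17 (limma adjusted p = 0.00805) was under the threshold on size. It was called with epithelial scaling (1.29, limma adjusted p = 0.00142), a pseudocount of 0.1 (1.11, 0.00584) and voom (1.15, 0.00846). The median over the 6 tested Cyp4f genes was -0.09 as deposited and 0.51 after scaling to epithelial markers. The 4 Cyp4a genes were below the filter, and their sums reached 0.116 FPKM.

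Among the sterol enzymes, Cyp27a1, the mitochondrial sterol 27-hydroxylase, was at 5.32, 9.84 and 7.20 FPKM in WT mice and at 36.5, 14.6 and 23.6 FPKM in Gm31629-/- mice. Each Gm31629-/- value was above each WT value (log2 fold change 1.56 ± 0.34, limma adjusted p = 0.0106). Cyp7b1, the oxysterol 7-alpha-hydroxylase, was at 0.0749, 0.385 and 0.172 FPKM in WT and at 1.73, 7.26 and 4.95 FPKM in Gm31629-/- mice (2.09 ± 0.39, limma adjusted p = 0.00557). Cyp7b1 held only 3, 15 and 7 fragments in the WT mice, so it passed the filter only through the Gm31629-/- mice. Cyp27a1 and Cyp7b1 were both called in each of the 6 fits that left out 1 mouse. The macrophage list was higher in the same mice, as given with Cyp4f18, and the fibroblast list summed to 22.2 to 45.0 FPKM in WT and to 249, 721 and 479 FPKM in Gm31629-/- mice. Among the Gm31629-/- mice both lists were highest in mouse 2, where Cyp7b1 was highest and Cyp27a1 lowest. Whether these cells carried the 2 transcripts was not tested.

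Cyp39a1, which hydroxylates 24-hydroxycholesterol, was at 2.69, 3.13 and 2.42 FPKM in WT mice and at 1.12, 1.21 and 1.34 FPKM in Gm31629-/- mice, below all WT values but under the threshold on size (log2 fold change -0.75 ± 0.15, limma adjusted p = 0.00819). It was called lower with a pseudocount of 0.1 (-1.10, limma adjusted p = 0.00621) and with voom (-1.16, 0.0102). After scaling to epithelial markers the log2 fold change of Cyp39a1 was -0.35 (limma adjusted p = 0.107). Cyp46a1, the cholesterol 24-hydroxylase known from neurons, did not pass the filter and held 40, 42 and 9 fragments in Gm31629-/- mice and 1 in each WT mouse. The pooled ratio was 30.4 (95% exact binomial interval 10.1 to 150, counting error only), and the list of enteric neuron and glia markers summed to 58.0, 72.9 and 23.5 FPKM in Gm31629-/- against 2.60 to 4.57 FPKM in WT mice. Cyp8b1, the sterol 12-alpha-hydroxylase of bile acid synthesis, held 20, 35 and 8 fragments in Gm31629-/- and 1, 3 and 3 in WT mice. Cyp7a1, the first enzyme of bile acid synthesis in liver, had 1 fragment over the 6 mice.

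In the vitamin D and retinoic acid lists, most genes were too scarce to test. Cyp2r1, a vitamin D 25-hydroxylase, held 15, 16 and 22 fragments in Gm31629-/- and 19, 5 and 6 in WT mice, with overlapping groups. Cyp27b1, which activates vitamin D, held 1, 9 and 6 fragments against 0, 1 and 1, and Cyp24a1, which inactivates it, 1 fragment over the 6 mice, which allows no comparison. Besides Cyp27a1, a member of the vitamin D list described above, the one gene tested was Cyp26b1, a retinoic acid hydroxylase, at 1.89, 2.54 and 0.915 FPKM in Gm31629-/- and 0.141, 0.166 and 0.229 FPKM in WT mice (log2 fold change 1.19 ± 0.24, limma adjusted p = 0.00724). Without Gm31629-/- mouse 2 its log2 fold change was just under 1 (limma adjusted p = 0.0138). Cyp26a1 held 6, 7 and 0 fragments in Gm31629-/- and 0, 0 and 1 in WT mice, and Cyp26c1 2, 1 and 1 against 0.

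The steroid hormone genes were near the floor. Cyp11a1, which starts steroid synthesis, held 4, 10 and 1 fragments in Gm31629-/- and 1, 0 and 1 in WT mice. Cyp11b1 held 5, 9 and 1 against 0, Cyp11b2 6, 10 and 2 against 0, 1 and 0, and Cyp21a1 0, 7 and 3 against 0, 1 and 0. The steroid list as a whole summed to at most 0.778 FPKM in each mouse.

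Family 1, the classical targets of the aryl hydrocarbon receptor Ahr, was below the filter in both its members. The 200 bases up to the RefSeq start of Cyp1a1 are shown (chr9:57697413-57697612, plus strand). In the GENCODE annotation the gene spans 57687928 to 57703824, so the stretch lies inside it. Capitals mark GCGTG, the core letters of the receptor's sites, and a match is a description, not a site.

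Cyp1a1: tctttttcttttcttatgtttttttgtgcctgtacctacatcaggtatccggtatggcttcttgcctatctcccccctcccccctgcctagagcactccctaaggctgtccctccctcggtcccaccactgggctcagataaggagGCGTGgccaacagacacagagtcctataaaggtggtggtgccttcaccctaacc

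The letters stood 54 bases before the start. On either strand they occurred in the windows of 9500 of 27025 genes (35.2%) and of 14 of 57 members (24.6%), among them 1 of 11 lower genes (Cyp2w1) and 0 of 6 higher genes with a window. Cyp1a1 held 1, 12 and 17 fragments in Gm31629-/- mice and 0 in each WT mouse, at least 3.34-fold higher by the floor of 3 fragments per library. Cyp1b1 held 108, 22 and 6 fragments against 0, 1 and 0, a pooled ratio of 135 (95% exact binomial interval 23.9 to 5379), with most of them in Gm31629-/- mouse 1. Of the regulators of that pathway, Tiparp, an induced repressor of Ahr, was at 10.6, 12.7 and 6.15 FPKM in Gm31629-/- and 4.68, 3.03 and 1.82 FPKM in WT mice (log2 fold change 1.38 ± 0.33, limma adjusted p = 0.0144), and without WT mouse 3 its adjusted p was 0.0534. Ahr was at 2.14 to 3.72 FPKM against 1.03 to 1.55 FPKM and was under the threshold on size as deposited (0.81 ± 0.21, limma adjusted p = 0.0186). It was called with epithelial scaling (1.21, limma adjusted p = 0.00307), a pseudocount of 0.1 (1.15, 0.0154) and voom (1.21, 0.0152).

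Over the 41 members below the filter, whose values reached at most 1.11 FPKM, the mean was higher in the Gm31629-/- mice in 30 (73.2%) and lower in 11. Over all 12889 genes listed above 0 but below the filter it was higher in 77.7%. All Gm31629-/- values were above all WT values in 15 members (36.6%) and below in 2, beside 3225 above and 329 below among the 12889 genes. Compared as fragments rather than FPKM, these were 12 and 1 members, beside 22.5% and 2.2% of all such genes. The Gm31629-/- libraries listed 22456 to 23600 genes above 0 and the WT libraries 19938 to 20118. Of the 41 members, 12 had 3 fragments or fewer over the 6 mice. Of the 2 tested members not yet named, Cyp20a1, an orphan P450, was at 5.52 to 7.89 FPKM in all 6 mice with overlapping groups (limma adjusted p = 0.949). Cyp2f2, the airway P450, was at 3.15 FPKM in Gm31629-/- mouse 3 and at most 0.376 FPKM in the others (limma adjusted p = 0.329).

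Beyond the symbol rule, 4 further genes encode P450 enzymes. Cyp51, the lanosterol demethylase of cholesterol synthesis, was at 51.3, 34.4 and 37.1 FPKM in WT and at 13.5, 17.0 and 14.6 FPKM in Gm31629-/- mice (log2 fold change -1.37 ± 0.19, limma adjusted p = 0.00179). Its call was lost with epithelial scaling (-0.78, limma adjusted p = 0.0142). Ptgis, prostacyclin synthase, was at 0.126, 0.108 and 0.0829 FPKM in WT and at 8.85, 9.75 and 3.14 FPKM in Gm31629-/- mice (2.78 ± 0.36, limma adjusted p = 0.00142). Tbxas1, thromboxane synthase, was at 0.202, 0.0855 and 0.0644 FPKM in WT and at 0.843, 1.4 and 0.533 FPKM in Gm31629-/- mice. It passed the filter only through the Gm31629-/- mice. The groups did not overlap, but the change was under the threshold on size (0.76 ± 0.20, limma adjusted p = 0.0189). Without WT mouse 2 or 3 the limma adjusted p was 0.0585 and 0.0745. Tbxas1 was called with a pseudocount of 0.1 (2.20, limma adjusted p = 0.00993) and voom (3.01, 0.00571). Cyp2ab1 was below the filter.

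Of 10 tested electron transfer and heme genes, 1 was called lower (4.64% of all tested genes) and 1 higher (18.4%). Alas1, the first enzyme of heme synthesis, was at 70.04, 79.8 and 68.5 FPKM in WT and at 20.4, 36.9 and 24.7 FPKM in Gm31629-/- mice (log2 fold change -1.42 ± 0.22, limma adjusted p = 0.00285). With epithelial scaling it was -0.81 (limma adjusted p = 0.0207) and no longer called. Hmox1, which breaks heme down, was at 5.50, 7.26 and 9.27 FPKM in WT and 25.3, 33.8 and 21.5 FPKM in Gm31629-/- mice (1.74 ± 0.23, limma adjusted p = 0.00163). Por was at 82.1, 115 and 91.5 FPKM in WT and at 61.4, 55.9 and 69.5 FPKM in Gm31629-/- mice, and it was not called (-0.61 ± 0.17, limma adjusted p = 0.0259). Its log2 fold change was 0.0041 after scaling to epithelial markers.

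Of 15 tested transcription factors and co-regulators of P450 genes, 3 were called lower (4.64% of all tested genes) and Tiparp higher (18.4%). Of the lower ones, 2 are described. Ppara, the receptor that drives fatty acid oxidation, was at 4.90, 9.57 and 7.82 FPKM in WT and at 1.26, 0.367 and 0.596 FPKM in Gm31629-/- mice (log2 fold change -2.27 ± 0.28, limma adjusted p = 0.00126). Hnf4a was at 278, 311 and 296 FPKM in WT and at 127, 104 and 157 FPKM in Gm31629-/- mice (-1.20 ± 0.18, limma adjusted p = 0.00253). After scaling to epithelial markers its log2 fold change was -0.59 (limma adjusted p = 0.0283) and the call was lost. Vdr, the vitamin D receptor, was at 97.3, 117 and 119 FPKM in WT and 69.8, 17.1 and 77.0 FPKM in Gm31629-/- mice, below all WT values but not called (-1.27 ± 0.53, limma adjusted p = 0.0885), and at -0.59 without Gm31629-/- mouse 2 (limma adjusted p = 0.0256). Nr1i2, the xenobiotic receptor PXR, overlapped between the groups (20.1 to 46.8 against 34.2 to 46.0 FPKM, limma adjusted p = 0.415), and its log2 fold change of -0.32 was 0.28 after scaling to epithelial markers and 0.015 without Gm31629-/- mouse 2. Nr1i3, the receptor CAR, was below the filter.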

How the data were processed

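RNA-Seq was made by the authors from the colons of 3 Gm31629-/- and 3 WT mice. Each sample has 1 column, and the columns were taken as separate mice, although the methods speak of pooled RNA. The deposited values are FPKM for 27546 genes by Ensembl identifier. The submitters' processing notes name HISAT2 2.1.0, HTSeq 0.6.0 and GRCm38, and the methods name DEGseq, which was not repeated here. Symbols and exon lengths came from GENCODE M21 (GRCm38) and matched 27488 identifiers. Fragments were recovered from the FPKM steps, with 96.3% to 97.2% of values up to 20 fragments within 0.1 of a whole number.

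Genes with a mean of at least 0.5 FPKM were tested in limma 3.58.1 (R 4.3.3, with a trended prior variance). The scale was log2(FPKM + 1), on which low genes show too small a change, and p-values were adjusted by Benjamini-Hochberg over every gene tested. The fit was tested on simulated data. Intervals and the floor of 3 fragments per library cover counting error only. Promoter windows (250 bases before to 50 after the start) were taken from RefSeq for 57 members, 17 of them called. Stretches of 50 bases were searched in all other transcripts to find shared sequence.

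The genes named are every called member, the 10 members with the highest mean, those of the vitamin D, retinoic acid, steroid and sterol lists, the P450 genes outside the symbol rule, the called partners and regulators with Por, Ahr, Nr1i2, Nr1i3, Vdr and Hnf4a, and tested members whose groups do not overlap. Any other name was picked with its values in view. The members and lists were chosen with earlier results of these data known. Alternatives tried were another pseudocount (0.1), filters (none, or a mean of at least 5 FPKM), scaling to the same sum, by the median ratio or to 15 epithelial markers, eBayes without a trend, voom on the recovered fragments, unadjusted p, the replicate number as a block, and leaving out each mouse. Gm31629 itself was not analysed here, and 1 called regulator is not reported here. Figures were drawn with matplotlib 3.10.9.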

Additional observations from a re-analysis of the deposited data

How the results depend on the processing

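Of the 22 called members, 13 were called in each of the 6 fits that left out 1 mouse, 22 remained with a pseudocount of 0.1, the same-sum scaling, no trend or voom, 20 with scaling to epithelial markers, 19 with the median ratio and 16 without a filter. The numbers called lower and higher were 6 and 7 at a mean of at least 5 FPKM, where fewer genes were tested, and 7 were higher without a filter, for which the cause was not tested. Leaving out 1 mouse gave 8 to 13 lower and 6 to 10 higher members, a median log2 fold change of -0.11 to 0.24, 5 to 9 partners and regulators called (6 with all mice), and summed pools in a ratio of 0.445 to 0.656. The median was 0.56 and the ratio 0.796 after scaling to epithelial markers, the median was -0.25 and 10 partners and regulators were called with the median ratio, and the cause was not tested. Cyp3a13 turned to 0.24 and Nr1i2 to 0.28 and Por to 0.0041 with epithelial scaling, and Cyp3a13 turned to 0.35 and Nr1i2 to 0.015 without Gm31629-/- mouse 2, where leaving out 1 mouse at a time gave -1.15 to 0.35 and -0.57 to 0.015. Over 40 named genes and 621 gene-level alternatives, 554 kept direction and side of the threshold, 49 lost the call, 13 gained it and 5 changed sign. Replicate numbers do not pair the mice (correlations of same-numbered deviations 0.036, -0.108 and 0.014), and with the replicate block 10 members were lower and 9 higher, with the calls of Cyp2d22, Cyp2d9 and Cyp2s1 lost. With 3 mice per group and values of few fragments, differences in the 41 members below the filter were not tested.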
